A study of Homo sapiens with 24 samples.

Results

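The ERBB receptors and their ligands were followed in RNA from a pair of human bladder cancer lines, read at the 3′ ends of transcripts, after siRNA knock-down of the transcription factors FOXA1 and ZBED2. The 10 genes, taken by symbol from the 58721 genes of the count table, were the receptors EGFR, ERBB2 and ERBB3, the ligands AREG, EREG, HBEGF, TGFA, EPGN and BTC, and the intracellular inhibitor ERRFI1. RT112 is a luminal papillary (LumP) line and SCaBER a basal/squamous (Ba/Sq) line. In each line the cells received by lipid transfection a control siRNA (siControl number 2), 1 of 2 siRNAs that target ZBED2 (siZBED2-1 or siZBED2-2), siRNA number 1 against FOXA1 (siFOXA1), or that FOXA1 siRNA together with either ZBED2 siRNA (double knock-downs). No library came from untransfected cells, each of the 12 groups held 2 libraries, and the knock-down was transient. Because each condition is a pool of transfected cells, fewer cells expressing a gene and less RNA per cell cannot be told apart.

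ERBB receptors are tyrosine kinases of the epithelial cell surface that pair with each other when a ligand binds. EGFR binds AREG, EREG, HBEGF, TGFA, EPGN and BTC. ERBB2 has no known ligand of its own and acts as a partner, and ERBB3 has little kinase activity and signals through partners when it binds neuregulins. The ligands are made as membrane-anchored precursors and released by shedding proteases, and ERRFI1 (also called MIG6) binds the EGFR kinase domain and shuts it off. In the urothelium EGFR is a receptor of the basal layer, while ERBB2 and ERBB3 are known for their high expression in luminal cells.

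Total counts were 4425404 to 5207195 per library in RT112 and 4519668 to 6119210 in SCaBER, and the detection floor, 3 counts for a gene listed at 0, came to 0.474 to 0.678 CPM (counts scaled to a common depth with TMM factors, the unit of all levels below). The labels of the lines were checked with markers. RT112 had median levels of 3062 CPM for KRT19, 409 for GATA3 and 134 for UPK2, whereas the umbrella-cell genes KRT20 and UPK3A had medians of 0, and SCaBER had 1142 CPM for KRT6A and 358 for KRT14 and 1.15 for KRT19. Some basal markers parted the lines less, with medians in RT112 and SCaBER of 235 and 853 CPM for KRT5, 154 and 500 for CD44, and 14.1 and 18.7 for TP63. Immune markers summed to 1.62 CPM at most in any group. FOXA1 fell in RT112 from 41.9 and 41.4 CPM with siControl to 6.87 and 9.57 with siFOXA1 (log2 fold change −2.36, SE 0.38, adjusted p = 5.68e-05). In SCaBER, where FOXA1 was scarce, it stood at 3.74 and 5.51 CPM with siControl and at 0.819 and 1.36 with siFOXA1 (adjusted p = 0.272). siZBED2-1 lowered ZBED2 in both lines (−3.97, adjusted p = 0.00624 in RT112 and −1.96, adjusted p = 0.00848 in SCaBER). Its change with siZBED2-2 did not pass (−1.52, adjusted p = 0.903, and −0.61, adjusted p = 0.844), and it also fell with siFOXA1 alone in RT112 (−2.48, adjusted p = 0.0325). Adjusted p-values throughout are from edgeR's quasi-likelihood test with Benjamini-Hochberg adjustment over all genes tested.

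The ligand genes EPGN, EREG, AREG and BTC are neighbours on chromosome 4, within 486.1 kb, with 48.4 kb between EPGN and EREG, 56.4 kb between EREG and AREG and 289.8 kb between AREG and BTC (RefSeq, GRCh38.p14). The other members lie apart, EGFR at chr7:55019017-55211628, ERBB2 at chr17:39688094-39728658, ERBB3 at chr12:56080108-56103505, HBEGF at chr5:140332843-140346603, TGFA at chr2:70447284-70553826 and ERRFI1 at chr1:8011727-8026309. The 250 bases before the start sites of the 4 neighbours are shown because EREG and AREG had the widest differences between the lines among the members that passed that test, which EPGN and BTC did not. They are EPGN at chr4:74308220-74308469, EREG at chr4:74364895-74365144 and AREG at chr4:74444886-74445135, all on the plus strand, and BTC at chr4:74794524-74794773 on the minus strand. Capitals mark TATAAA, and in BTC the forkhead core TGTTTAC, both searched on either strand. No match of one overlapped a match of the other.
EPGN: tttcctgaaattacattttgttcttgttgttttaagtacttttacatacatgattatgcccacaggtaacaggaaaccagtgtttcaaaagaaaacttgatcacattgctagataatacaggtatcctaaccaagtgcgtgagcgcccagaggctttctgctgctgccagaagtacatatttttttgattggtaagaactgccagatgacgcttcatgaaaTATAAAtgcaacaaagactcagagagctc
EREG: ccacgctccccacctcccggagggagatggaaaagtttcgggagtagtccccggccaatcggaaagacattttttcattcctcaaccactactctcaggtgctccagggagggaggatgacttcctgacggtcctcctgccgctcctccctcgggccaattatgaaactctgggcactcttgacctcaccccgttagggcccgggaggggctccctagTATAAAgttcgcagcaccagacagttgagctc
AREG: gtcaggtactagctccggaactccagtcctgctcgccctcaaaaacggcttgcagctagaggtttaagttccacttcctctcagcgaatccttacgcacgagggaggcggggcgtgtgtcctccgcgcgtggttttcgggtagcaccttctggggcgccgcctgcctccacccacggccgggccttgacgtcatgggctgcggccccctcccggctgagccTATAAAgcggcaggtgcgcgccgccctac
BTC: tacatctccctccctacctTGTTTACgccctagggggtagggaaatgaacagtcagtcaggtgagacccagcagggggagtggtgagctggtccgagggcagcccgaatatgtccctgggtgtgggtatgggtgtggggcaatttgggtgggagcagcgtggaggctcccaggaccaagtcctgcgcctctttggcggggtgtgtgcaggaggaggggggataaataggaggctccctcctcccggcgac
TATAAA stood 29 bases before the start of EPGN, 32 before EREG and 29 before AREG, and was not in these 250 bases of BTC, whose TGTTTAC lay 231 bases before its start. Of all 35116 RefSeq promoter windows of this length, 10.7% held TATAAA and 2.98% held TGTTTAC. Among the members, 9 of 10 had an entry (11 windows), and TATAAA was also found before EGFR. Such matches describe the letters and do not mark bound sites.

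Before any transcription factor was depleted, the lines differed in most of these genes. Under siControl 7 of the 10 members passed the test between the lines, 2 higher and 5 lower in RT112, against a background of 33.6% of all 14823 genes (16.4% higher and 17.2% lower). The median log2 difference of the members (RT112 minus SCaBER) was −1.12, beside 0.00 over all genes tested. The members were chosen with earlier results of these data known. Shares over all genes, here and below, are therefore a setting for the counts and no test of an excess. All 3 receptors differed: ERBB2 and ERBB3 were higher in RT112, EGFR and 4 ligands in SCaBER.

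EGFR had 79.9 and 72.0 CPM in RT112 and 352 and 288 CPM in SCaBER under siControl, a log2 difference of −2.08 (SE 0.15, adjusted p = 1.68e-13). The lines did not overlap in any treatment, since EGFR ran from 72.0 to 190 CPM over the 12 RT112 libraries and from 288 to 486 over the 12 SCaBER libraries. ERBB2 went the other way, with 53.9 and 45.5 CPM in RT112 and 24.3 and 25.4 in SCaBER (1.00, SE 0.26, adjusted p = 0.00255). ERBB3 likewise had 75.3 and 88.0 CPM in RT112 and 36.9 and 31.9 in SCaBER (1.25, SE 0.20, adjusted p = 8.4e-06).

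Among the ligands the widest gap was in EREG, a ligand of both EGFR and ERBB4. It had no count in either RT112 siControl library and 171 and 217 CPM in SCaBER, at least 296-fold higher when RT112 is set at its floor of 3 counts per library. Over all 12 RT112 libraries EREG had 35 counts in all, in 5 libraries. AREG (amphiregulin, a low-affinity EGFR ligand) had 21.0 and 14.9 CPM in RT112 and 321 and 339 in SCaBER (−4.21, SE 0.25, adjusted p = 2.19e-15). HBEGF, which also binds ERBB4, had 20.5 and 20.1 CPM against 46.8 and 40.4 (−1.10, SE 0.25, adjusted p = 0.000845). TGFA had 21.6 and 10.9 CPM against 42.1 and 28.6 (−1.13, SE 0.34, adjusted p = 0.00902), and this call was lost without RT112 siControl replicate 2 (−0.71, adjusted p = 0.213) or SCaBER siControl replicate 1 (−0.82, adjusted p = 0.14). Thus the ligands AREG, EREG, HBEGF and TGFA and the receptor EGFR were all higher in the Ba/Sq line.

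The remaining members did not pass between the lines. BTC was low in both, at 0 to 3.65 CPM in RT112 and 1.39 to 8.47 in SCaBER over all libraries. EPGN had 0 and 0.92 CPM in RT112 and no count in SCaBER under siControl. ERRFI1 had 27.3 and 30.2 CPM in RT112 and 17.8 and 20.1 in SCaBER (0.60, SE 0.27, adjusted p = 0.0865).

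**Figure D1:**
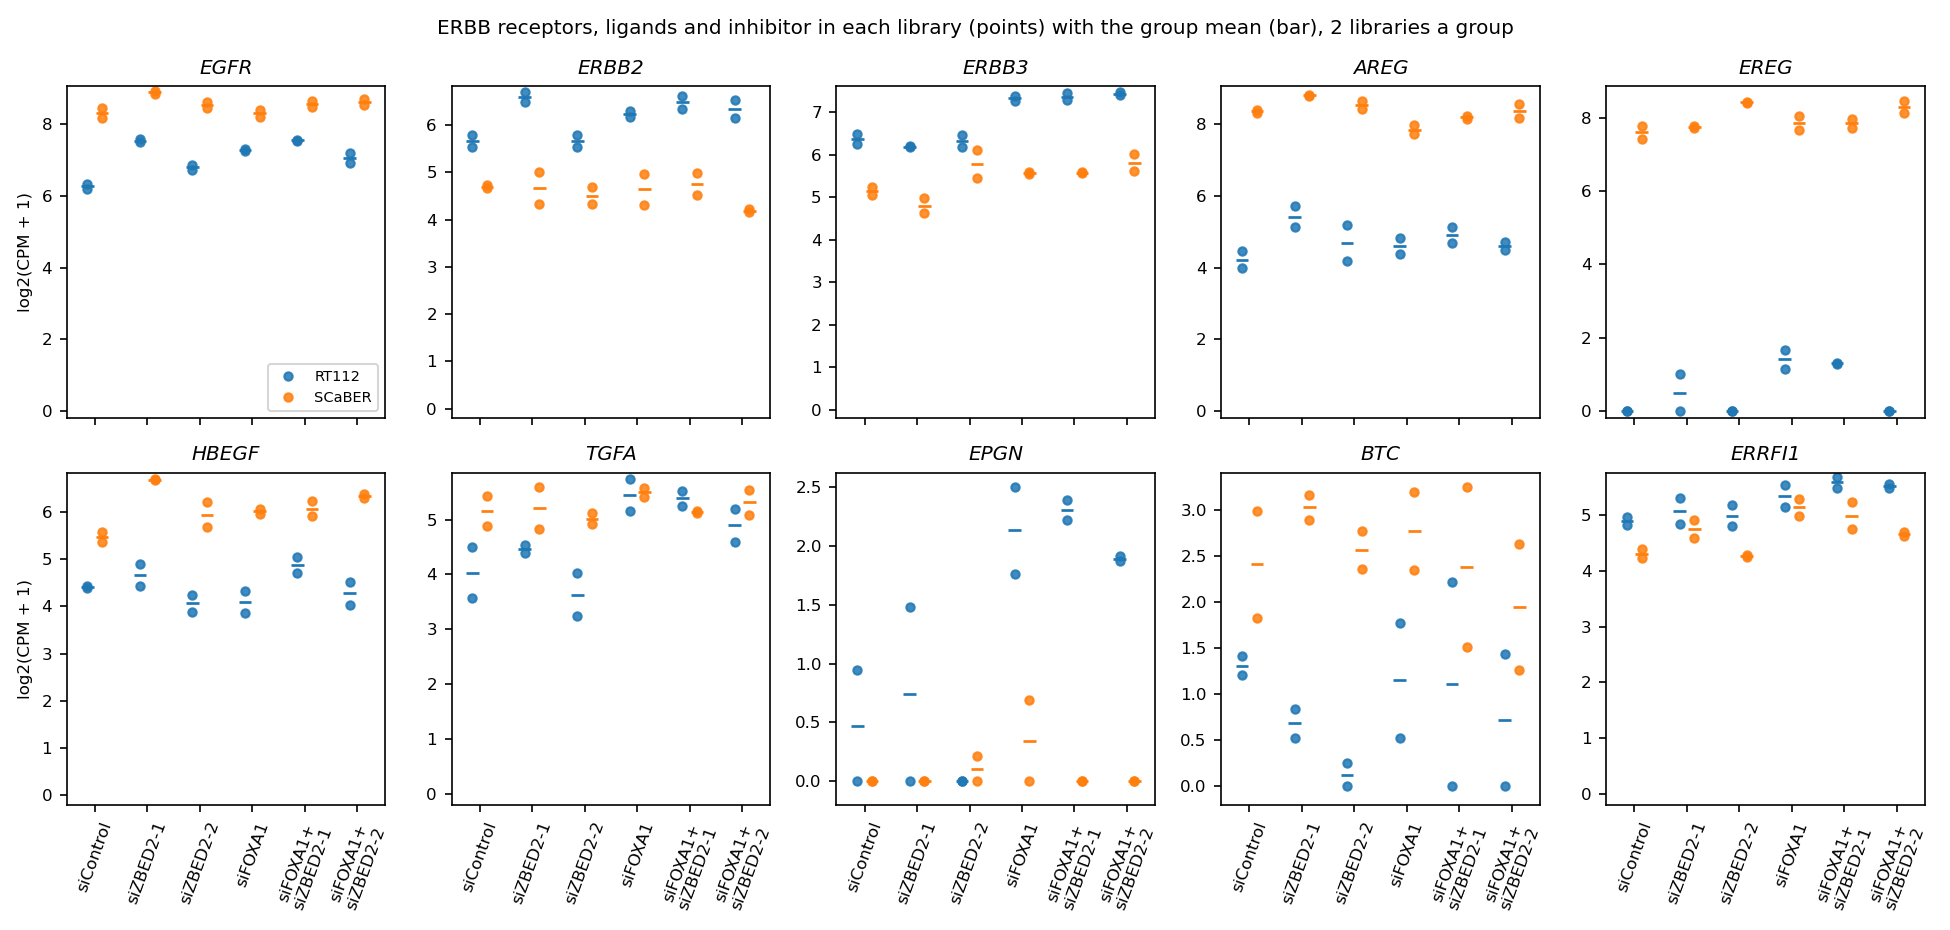
Level of each gene in each library, on a log2(CPM + 1) scale that differs between panels, by treatment, with RT112 in blue and SCaBER in orange; bars are means of 2 libraries. EGFR, AREG and EREG stand higher in all 12 SCaBER libraries, ERBB2 higher in RT112, and EPGN is near 0 in SCaBER.

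Receptors and TGFA were higher in RT112 with the FOXA1 siRNA. The same FOXA1 siRNA was used in every such library, and ZBED2 also fell with siFOXA1 alone in RT112. The part of FOXA1 loss, of ZBED2 loss and of other effects of the siRNA in these changes was not tested. With siFOXA1 alone 4 of the 9 members tested passed, all higher (EGFR, ERBB3, TGFA and ERBB2), where 23.3% of all 13264 genes passed in either direction and 11.3% were higher. The members' median log2 fold change was 0.57, beside −0.01 over all genes. EREG was not tested in RT112, where 7 of 12 libraries had no count of it.

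EGFR had 158 and 151 CPM with siFOXA1, both above the 79.9 and 72.0 of siControl (1.01, SE 0.16, adjusted p = 4.16e-05). ERBB3 had 166 and 152 CPM against 75.3 and 88.0 (0.94, SE 0.17, adjusted p = 0.000133). TGFA, a high-affinity EGFR ligand, had 52.1 and 34.8 CPM against 21.6 and 10.9 (1.41, SE 0.36, adjusted p = 0.00466). In each of these genes both siFOXA1 libraries stood above both controls. Of all 10 members 8 were separated in either direction, among them HBEGF, which did not pass. The share over all genes was not counted for 2 against 2 libraries, so this count is no sign of an excess. It also holds EREG and EPGN, which had few reads.

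ERBB2 had 78.2 and 71.2 CPM against 53.9 and 45.5 (0.57, SE 0.21, adjusted p = 0.0431), and its call was lost without any of the 4 libraries, with an adjusted p up to 0.315. The call of TGFA was lost without siFOXA1 replicate 1 (1.09, adjusted p = 0.0511) or siControl replicate 2 (0.98, adjusted p = 0.118). AREG had 27.7 and 20.0 CPM with siFOXA1 (adjusted p = 0.453), HBEGF 19.2 and 13.5 (adjusted p = 0.552) and ERRFI1 34.6 and 45.7 (adjusted p = 0.225). On the deposited TPM values none of the 4 calls remained at adjusted p under 0.05 (EGFR 0.0815, ERBB3 0.133, TGFA 0.0545, ERBB2 0.584 in limma). TPM moved the median of all genes by −0.26, and relative to that median EGFR had 0.93, ERBB3 0.88, TGFA 1.31 and ERBB2 0.51.

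The FOXA1 siRNA was also present in both double knock-downs, so its change was averaged over the 3 ZBED2 states (siControl, siZBED2-1, siZBED2-2) with 6 libraries on each side. In RT112 6 of the 9 members tested passed, all higher, against a background of 33.8% in either direction and 16.7% higher. The libraries did not overlap in ERBB3, TGFA and EPGN, each higher with the FOXA1 siRNA, where 5.27% of all genes did so upward. EPGN is in both counts, but reached the minimum count of 10 for testing only in libraries with the FOXA1 siRNA. It therefore adds no weight to either count.

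ERBB3 was the most uniform of these genes: 6 libraries without the FOXA1 siRNA had 70.9 to 88.0 CPM (median 73.7) and 6 with it had 152 to 176 (median 167). The averaged change was 1.09 (SE 0.10, adjusted p = 2.23e-09), and ERBB3 was higher with the FOXA1 siRNA in 6 of 6 pairs of equal ZBED2 state and replicate number. TGFA ran from 8.40 to 22.2 CPM without the siRNA and from 23.2 to 52.1 with it (1.23, SE 0.21, adjusted p = 3.86e-05), also in 6 of 6 pairs. The lowest TGFA library with the siRNA stood just above the highest without it.

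EPGN (epigen), a ligand with few reads, had 0, 5, 9, 0, 0 and 0 counts in the 6 RT112 libraries without the FOXA1 siRNA (siControl, siZBED2-1, siZBED2-2) and 23, 11, 20, 18, 12 and 13 in those with it. The means were 0.451 ± 0.750 and 3.39 ± 0.930 CPM (SD, n = 6 each), and the averaged test gave an adjusted p of 0.00591. Only libraries with the siRNA reached the minimum count of 10 for testing, so EPGN entered the test through the side where it is high. Its fitted fold change depends on the prior count, since siZBED2-2 had no count, and siFOXA1 against siControl alone did not pass (adjusted p = 0.22). In SCaBER EPGN had 3 counts in a single siFOXA1 library and 1 in a siZBED2-2 library, and none in the other 10.

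EGFR (0.43, SE 0.09, adjusted p = 0.000583), ERBB2 (0.38, SE 0.12, adjusted p = 0.0131) and ERRFI1 (0.50, SE 0.15, adjusted p = 0.0118) also passed in the averaged comparison, with overlapping libraries. ERRFI1 had 26.9 to 38.8 CPM without the FOXA1 siRNA and 34.6 to 50.9 with it, and was higher in 6 of 6 pairs. Its call was lost without siZBED2-1 replicate 2 (0.43, adjusted p = 0.0531), and that of ERBB2 without siControl replicate 2 (adjusted p = 0.0516) or replicate 1 of either double knock-down (adjusted p = 0.0508 and 0.0663). On TPM these calls were lost (adjusted p = 0.475, 0.698 and 0.262), while those of ERBB3, TGFA and EPGN remained. AREG, HBEGF and BTC did not pass, at adjusted p = 0.725, 0.912 and 0.366.

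Other measures moved with the FOXA1 siRNA in RT112. Mitochondrial transcripts took 8.22% to 17.8% of the counts in the 6 libraries without it and 18.6% to 22.7% in the 6 with it, against 9.55% to 12.0% and 9.29% to 12.9% in SCaBER. All 138 member results kept their side of the threshold when mitochondrial transcripts were left out. Of 4 fibroblast markers only COL1A1 had a median above the floor in RT112, and the summed group means of the list were 4.72 to 21.4 CPM without and 41.3 to 47.9 with the FOXA1 siRNA, while COL1A2 was at 0 in all RT112 libraries. In SCaBER that sum was 4.79 to 7.57 CPM without and 10.7 to 13.9 with the siRNA. Of 9 luminal markers, which include ERBB2 and FOXA1, 7 had a median above the floor, and their sum was 4041 to 4381 CPM without and 3166 to 3680 with the siRNA. Basal markers, 5 of 6 above the floor, summed to 347 to 427 and 402 to 635 CPM. The part of these shifts in the changes of the ERBB genes was not tested. Leaving out the mitochondrial transcripts only takes those rows from the fit and does not adjust for differences between the libraries.

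**Figure D2:**
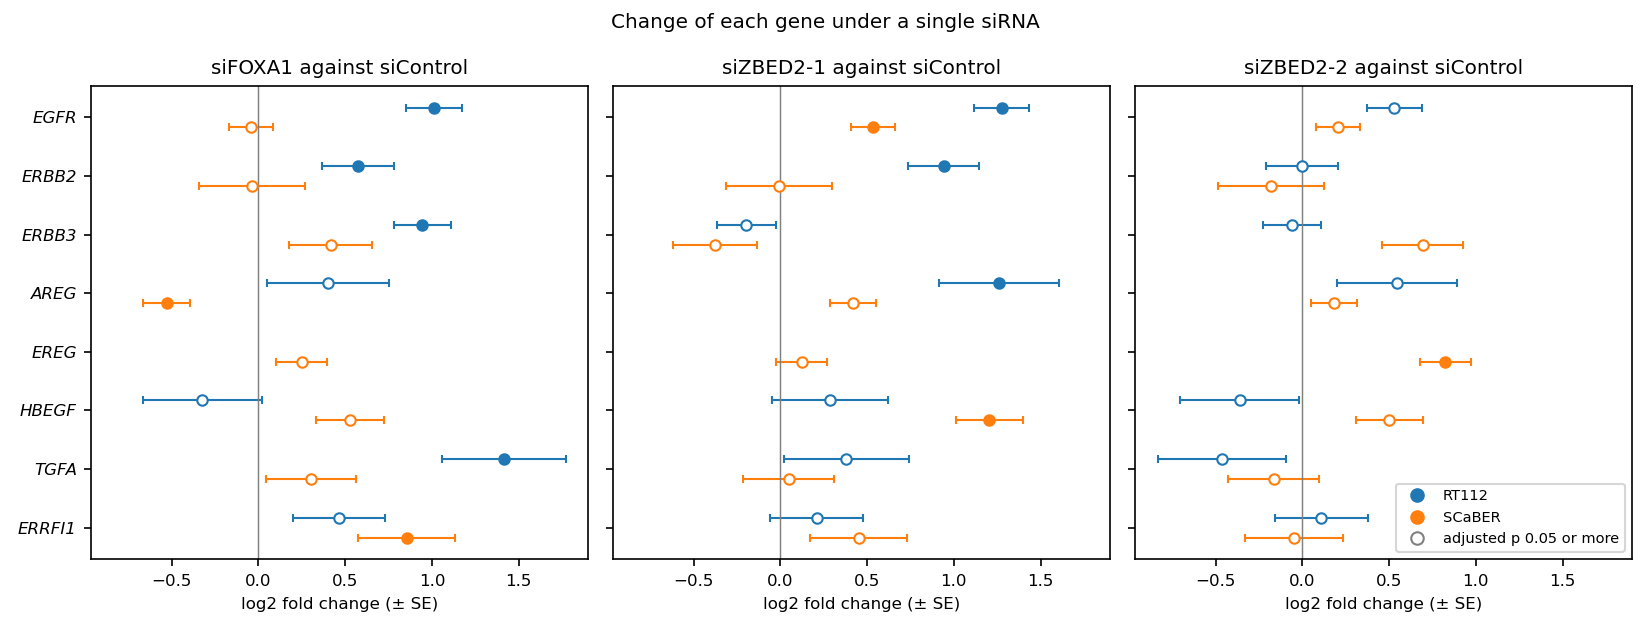
Log2 fold change against siControl (points) with its standard error (bars, derived from the F statistic) for each single siRNA, RT112 in blue and SCaBER in orange. Filled points have an adjusted p under 0.05. EPGN and BTC are left out for their few reads, and EREG was not tested in RT112. EGFR rose with siFOXA1 in RT112 (1.01) and stood at −0.04 in SCaBER.

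In SCaBER, where the fall of FOXA1 itself did not pass, a ligand was lower and the inhibitor higher with the FOXA1 siRNA. With siFOXA1 alone 2 of 9 members tested passed, 1 higher and 1 lower, against a background of 17.8% of 13129 genes (8.71% higher and 9.12% lower). AREG fell from 321 and 339 CPM to 210 and 253 (−0.53, SE 0.13, adjusted p = 0.0044), a call lost without siFOXA1 replicate 1 (−0.39, adjusted p = 0.0823). ERRFI1 rose from 17.8 and 20.1 to 30.9 and 38.5 CPM (0.85, SE 0.28, adjusted p = 0.0286), and its call was lost without siControl replicate 1 (0.77, adjusted p = 0.184), siControl replicate 2 (0.95, adjusted p = 0.0854) or siFOXA1 replicate 2 (0.68, adjusted p = 0.235). Neither gene's libraries overlapped between siFOXA1 and siControl, which held for 4 of the 10 members. The share over all genes was not counted, so this count is no sign of an excess.

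The receptors did not pass in SCaBER. EGFR had 338 and 291 CPM with siFOXA1 and 352 and 288 with siControl (−0.04, SE 0.13, adjusted p = 0.875). ERBB2 had 18.8 and 30.3 CPM (−0.04, SE 0.31, adjusted p = 0.96) and ERBB3 45.9 and 47.1 (0.42, SE 0.24, adjusted p = 0.254). HBEGF had 65.7 and 61.6 CPM, above the 46.8 and 40.4 of siControl (0.53, SE 0.20, adjusted p = 0.0583), and passed with the replicate number as a block (0.53, adjusted p = 0.0415).

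Averaged over the 3 ZBED2 states 3 of 9 members passed in SCaBER, 2 higher and 1 lower, against a background of 24.1% (12.1% higher and 12% lower), and none of the members had libraries that did not overlap, where 6.75% of all genes did. AREG had 321 to 454 CPM without and 210 to 375 with the FOXA1 siRNA (−0.44, SE 0.08, adjusted p = 4.47e-05) and was lower in 6 of 6 pairs. ERBB3 passed at 0.40 (SE 0.14, adjusted p = 0.0285), higher in 5 of 6 pairs, and ERRFI1 at 0.51 (SE 0.16, adjusted p = 0.0185), also in 5 of 6. The ERBB3 call was lost without siZBED2-2 replicate 1 (0.30, adjusted p = 0.136), siControl or siZBED2-1 replicate 2, either siFOXA1 with siZBED2-1 library, or siFOXA1 with siZBED2-2 replicate 2. The ERRFI1 call was lost without siFOXA1 with siZBED2-1 replicate 1 (0.41, adjusted p = 0.103), siControl or siZBED2-1 replicate 1, or siFOXA1 replicate 2. FOXA1 itself was near its detection limit here, as given above.

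The change with the FOXA1 siRNA was compared between the lines directly, in a fit of all 24 libraries. With siFOXA1 alone 2 of 10 members differed, against a background of 2.58% (1.17% higher): EGFR, by 1.05 (RT112 minus SCaBER, SE 0.20, adjusted p = 0.00194), and EREG (adjusted p = 0.0152). EREG in RT112 rested on 0 and 0 counts with siControl against 6 and 10 with siFOXA1, and entered the test through its SCaBER reads. Averaged over the ZBED2 states 3 of 10 differed, against 8.11% (3.93% higher): EGFR by 0.52 (SE 0.11, adjusted p = 0.00279), ERBB3 by 0.68 (SE 0.16, adjusted p = 0.00593) and TGFA by 1.06 (SE 0.27, adjusted p = 0.0101). In each the change was greater in RT112. On TPM these line differences of EGFR (0.84 and 0.30, adjusted p = 0.125 and 0.237), ERBB3 (0.47, adjusted p = 0.205) and TGFA (0.77, adjusted p = 0.0683) did not pass. ERBB2 (0.49, SE 0.21, adjusted p = 0.162) and AREG (0.34, SE 0.19, adjusted p = 0.316) did not differ by this test, and for ERRFI1 the difference was 0.00 (SE 0.20, adjusted p = 1). AREG under siFOXA1 alone differed by 0.93 (adjusted p = 0.14), but 0.93 (adjusted p = 0.0471) once the replicate block was fitted and 0.94 (adjusted p = 0.0163) without the filter on low counts.

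EGFR was higher with siZBED2-1 in both lines. Whether this came from the loss of ZBED2 or from another effect of this siRNA was not tested. In RT112 3 of 9 members passed, all higher (EGFR, ERBB2 and AREG), against a background of 8.8% (4.35% higher). EGFR had 179 and 190 CPM against 79.9 and 72.0 (1.28, SE 0.16, adjusted p = 6.11e-06). ERBB2 had 88.6 and 103 CPM against 53.9 and 45.5 (0.94, SE 0.20, adjusted p = 0.00342). AREG had 51.7 and 34.1 CPM against 21.0 and 14.9 (1.26, SE 0.35, adjusted p = 0.0202). All 3 genes were higher in both siZBED2-1 libraries than in either control. Of all 10 members 6 were separated in either direction. The share over all genes was not counted, so this count is no sign of an excess. Without siControl replicate 2 the calls of ERBB2 (0.80, adjusted p = 0.0825) and AREG (1.01, adjusted p = 0.219) were lost. ERBB2 was also lost without siZBED2-1 replicate 2 (0.81, adjusted p = 0.0608) and AREG without siZBED2-1 replicate 1 (0.92, adjusted p = 0.248).

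In SCaBER 2 of 9 members passed with siZBED2-1, both higher, against a background of 4.65% (2.19% higher). HBEGF had 102 and 103 CPM against 46.8 and 40.4 (1.21, SE 0.19, adjusted p = 8.21e-05), and this call held in each fit that left out 1 library. EGFR had 486 and 457 CPM against 352 and 288 (0.53, SE 0.13, adjusted p = 0.00807), a call lost without siZBED2-1 replicate 1 (0.50, adjusted p = 0.0785) or siControl replicate 2 (0.41, adjusted p = 0.192). That EGFR call was also lost on TPM (0.50, adjusted p = 0.130 in limma). AREG had 443 and 454 CPM against 321 and 339 (0.42, SE 0.13, adjusted p = 0.0662), and passed with the replicate number as a block (0.42, adjusted p = 0.0122), in DESeq2 (adjusted p = 0.0352), with no filter (adjusted p = 0.039) and with only the compared groups (adjusted p = 0.0321). In both lines ERBB3 was lower in both siZBED2-1 libraries than in the controls without passing (−0.19, adjusted p = 0.583, and −0.38, adjusted p = 0.497).

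With siZBED2-2, whose effect on ZBED2 itself did not pass, 0 of 9 members passed in RT112 in edgeR, against a background of 0.166%, and 0 in DESeq2. An unadjusted p under 0.05 was given for 1 member, EGFR. It had 105 and 116 CPM (0.53, SE 0.16, adjusted p = 0.35, unadjusted p = 0.00273), and AREG had 35.3 and 17.3. In SCaBER 1 of 9 passed, against 0.625% (0.427% higher): EREG rose from 171 and 217 to 339 and 346 CPM (0.82, SE 0.15, adjusted p = 0.00182), and without siControl replicate 1 it did not pass (0.67, adjusted p = 0.0689). With siZBED2-1 EREG had 211 and 219 CPM (0.12, SE 0.15, adjusted p = 0.773). The difference between the ZBED2 siRNAs was not tested. All these comparisons, and those with siFOXA1 alone, share the siControl libraries of their line.

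The double knock-downs combined the FOXA1 siRNA with each ZBED2 siRNA. In RT112 ZBED2 was already at 5.46 and 1.52 CPM with siFOXA1 alone, beside 22.1 and 16.9 with siControl. A further fall of ZBED2 in the double knock-downs did not pass (−1.03, SE 0.75, adjusted p = 0.573), so a second depletion was not shown there. The RT112 interaction thus sets ZBED2 siRNAs on backgrounds that differ in ZBED2 itself. EGFR in RT112 had 186 and 185 CPM with siFOXA1 and siZBED2-1 together and 119 and 146 with siFOXA1 and siZBED2-2, beside 179 and 190 with siZBED2-1 alone and 158 and 151 with siFOXA1 alone. With siZBED2-2 both double knock-down libraries stood below those of siFOXA1 alone. The log2 ratio of libraries with against without the FOXA1 siRNA, at equal replicate number, was 0.98 and 1.07 on siControl, 0.06 and −0.04 on siZBED2-1, and 0.19 and 0.33 on siZBED2-2. The interaction, which subtracts the mean change of the ZBED2 siRNAs on siControl from that on siFOXA1, was −0.88 for EGFR (SE 0.19, adjusted p = 0.0303), the only 1 of 9 members that passed, against a background of 0.611% (0.302% lower). This call was lost without siControl replicate 1 (adjusted p = 0.0634) or 2 (−0.79, adjusted p = 0.223), siFOXA1 replicate 2 (adjusted p = 0.125), siZBED2-1 replicate 2 (adjusted p = 0.0613) or siFOXA1 with siZBED2-2 replicate 1 (adjusted p = 0.0526), and on TPM (−0.79, adjusted p = 0.578).

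Ordered by level in RT112, EGFR was lowest with siControl, then higher with siZBED2-2, with siFOXA1 and siZBED2-2, with siFOXA1, and highest with siZBED2-1 and with siFOXA1 and siZBED2-1. The libraries of neighbours did not overlap except for the last pair, but the order was made from these same levels. It is therefore no test of separate steps. For EGFR neither siZBED2-2 against siControl (adjusted p = 0.35) nor the double knock-downs against siFOXA1 (adjusted p = 0.962) passed. ERBB3 behaved otherwise, with 155 and 173 CPM and 167 and 176 CPM in the double knock-downs and 166 and 152 with siFOXA1 alone, within 152 to 176 CPM in all 6 libraries (interaction 0.21, SE 0.20, adjusted p = 0.745). Against siFOXA1 alone, 0 of 9 members passed in the RT112 double knock-downs in edgeR and 0 in DESeq2, and 0 had an unadjusted p under 0.05, where 1.96% of all genes passed.

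In SCaBER 1 of 9 members passed between the double knock-downs and siFOXA1, against 3.84% (2.06% higher): AREG was higher, with 283 and 303 CPM and 286 and 375 CPM against 210 and 253 (0.43, SE 0.12, adjusted p = 0.0281). That call was lost when only these groups entered the fit (0.44, adjusted p = 0.0604), and without siFOXA1 replicate 1 (0.30, adjusted p = 0.288) or replicate 2 of either double knock-down (adjusted p = 0.0795 and 0.143). The interaction passed for 0 of 9 members in edgeR and 0 in DESeq2, against 2.29%, and 1 member, HBEGF, had an unadjusted p under 0.05 (−0.65, SE 0.24, adjusted p = 0.17).

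**Figure D3:**
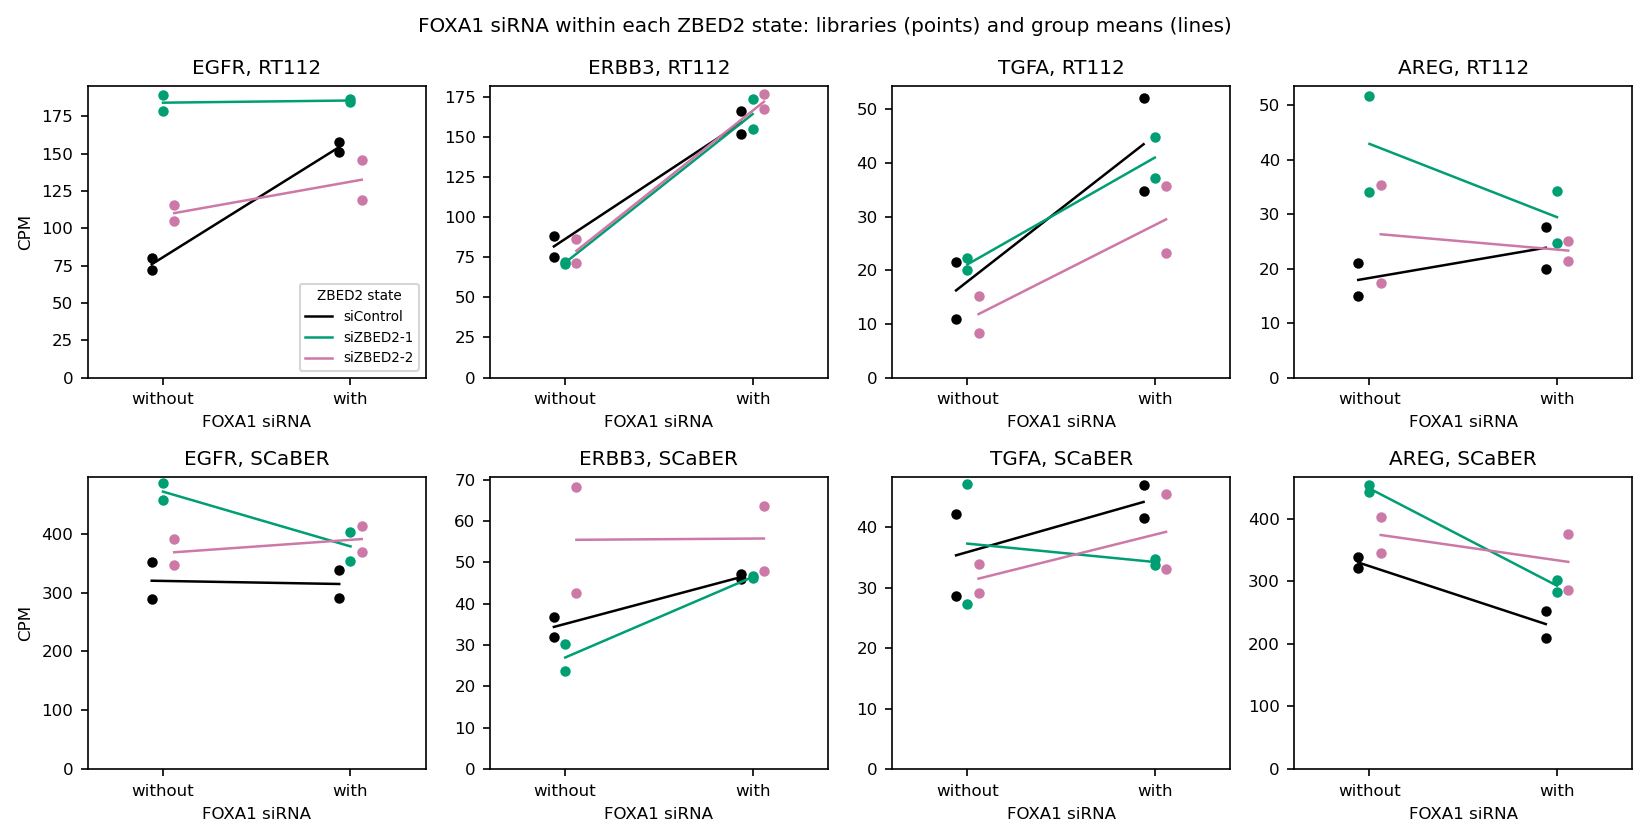
CPM (linear axis from 0) of EGFR, ERBB3, TGFA and AREG in libraries without and with the FOXA1 siRNA, by ZBED2 state (black siControl, green siZBED2-1, pink siZBED2-2); points are libraries, lines join group means. In RT112 EGFR rises with the FOXA1 siRNA on siControl and is level on siZBED2-1, ERBB3 rises in all 3 states, and in SCaBER AREG falls in all 3.

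The other genes of the pathway were read from 7 lists of 57 genes. With siFOXA1, 7 of 51 tested rose and 12 fell in RT112, and 4 of 50 rose and 10 fell in SCaBER. Over all genes, 11.3% were higher and 11.9% lower in RT112, and 8.71% and 9.12% in SCaBER. The median log2 fold change of the tested pathway genes was −0.12 in RT112 and −0.11 in SCaBER, beside −0.01 and −0.02 over all genes. In ligand shedding and trafficking (ADAM10, ADAM17, RHBDF1 and RHBDF2), 2 rose and 1 fell in each line, where 23.3% of all genes passed in RT112 and 17.8% in SCaBER. RHBDF1, an iRhom that escorts the protease ADAM17, rose by 1.49 (adjusted p = 2.18e-05) in RT112 and 0.97 (adjusted p = 0.00357) in SCaBER. ADAM17, which cuts several of these ligands from the membrane, rose by 0.70 (adjusted p = 0.000474) and 0.60 (adjusted p = 0.0103).

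Among ERK feedback and immediate targets, genes that report signalling through the cascade, 1 of 13 rose and 5 fell in RT112 and 5 of 13 fell in SCaBER (11.9% and 9.12% of all genes were lower). The transcription factor gene ETV4 fell in both, with −1.83 (adjusted p = 0.000369) for RT112 and −2.72 (adjusted p = 7.7e-05) for SCaBER. DUSP6, an ERK phosphatase, fell in both lines, with −1.31 (adjusted p = 6.99e-06) in RT112 and −0.69 (adjusted p = 0.0346) in SCaBER. PHLDA1 fell likewise, with −1.24 (adjusted p = 1.2e-07) in SCaBER and −0.50 (adjusted p = 0.0195) in RT112. In PI3K and AKT, 1 of 7 rose and 2 fell in RT112 and 2 fell in SCaBER (11.3% of all genes were higher in RT112, and the lower shares are those given above).

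Of the adaptors 2 of 7 rose in each line (11.3% and 8.71% of all genes were higher). SHC1, an adaptor of activated receptors, rose in SCaBER (0.52, adjusted p = 0.0159) and had 0.17 in RT112 (adjusted p = 0.443). Among RAS, RAF, MEK and ERK genes 2 of 9 fell in RT112 and 1 of 9 in SCaBER, and in receptor down-regulation 1 of 9 rose and 2 fell in RT112 and 0 of 8 passed in SCaBER. Of all genes 11.9% were lower in RT112 and 9.12% in SCaBER. USP8, a deubiquitinase of ERBB receptors, rose in RT112 by 1.03 (adjusted p = 5.07e-05) and had 0.35 in SCaBER (adjusted p = 0.151). With siZBED2-1 2 of 51 pathway genes rose and 1 fell in RT112 and 1 of 50 rose in SCaBER, where 8.8% and 4.65% of all genes passed. Of the other ligands and ERBB4, 2 genes were tested in each line with siFOXA1, of which 0 passed in RT112 and 1 fell in SCaBER. That gene was NRG1, a neuregulin that binds ERBB3, with a mean of 54.3 CPM with siControl and 27.9 with siFOXA1 in SCaBER (−0.98, SE 0.22, adjusted p = 0.00114), and it rose to 91.1 with siZBED2-1 (0.72, SE 0.20, adjusted p = 0.0323). It had 129 to 564 counts in SCaBER libraries and at most 1 in RT112. NRG4 went the other way between the lines, with medians of 6.90 CPM in RT112 and 1.65 in SCaBER (adjusted p = 0.0114 under siControl), while ERBB4, NRG2 and NRG3 had medians under the floor in both.

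**Figure D4:**
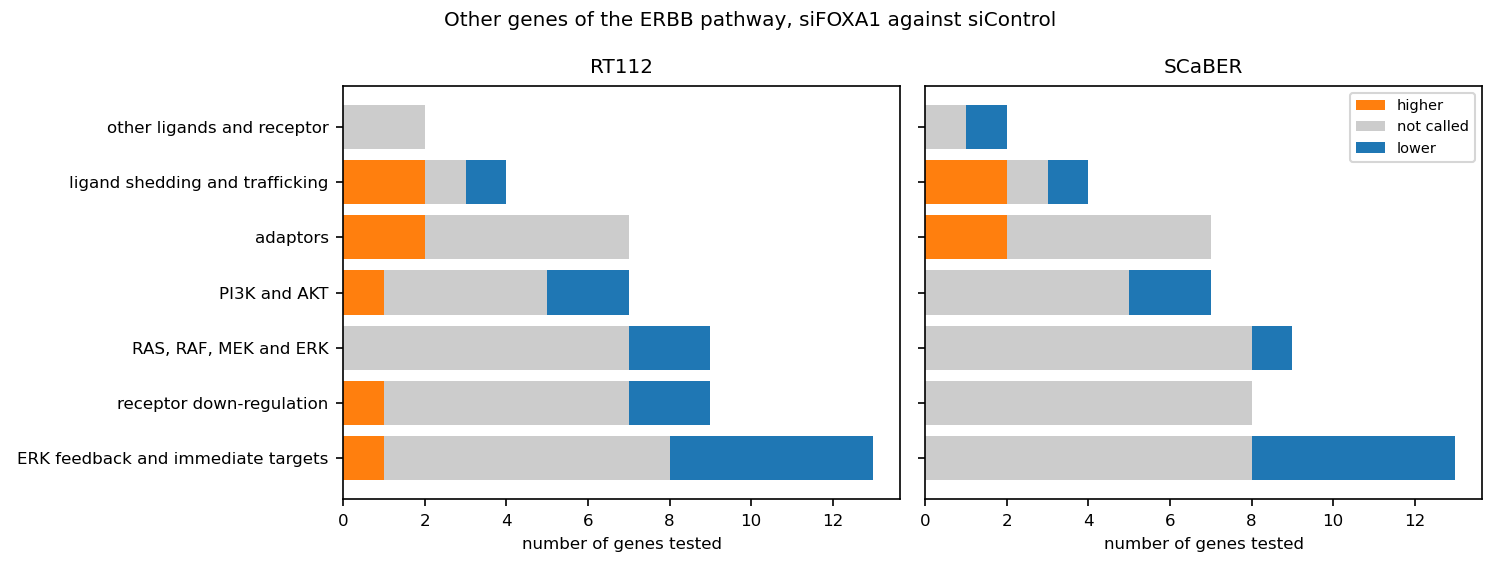
Number of genes tested in each pathway list (bar length) that were higher (orange), lower (blue) or did not pass (grey) with siFOXA1 against siControl, in RT112 (left) and SCaBER (right). The ERK feedback list has 5 genes lower in each line.

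Across the 24 libraries, with each gene centred on the mean of its line, the members varied in part together. The highest correlations among members were between TGFA and EPGN (Pearson r = 0.76) and ERBB3 and EPGN (0.71), and those of BTC with the others were at most 0.23. Centred values still share treatment and depth, so they are given as descriptions. The genes most like EGFR were MINDY2 (0.87), ANXA2 (0.86) and PTPN14 (0.86), and those most like ERBB3 included CDK6 (0.88) and ZFAND2B (0.84). TGFA was most like AC020571.1 (0.89), the mitochondrial gene MT-ND2 (0.89) and CDCP1 (0.88). In RT112 TGFA was also higher in replicate 1 than replicate 2 in 6 of 6 groups, and in SCaBER AREG and EREG were each lower in replicate 1 in 6 of 6 groups. AREG was most like PPL (0.80), HBEGF most like KATNBL1 (0.77), ERBB2 most like ASS1 (0.75), EREG most like AC012368.1 (0.83), EPGN most like KIAA1211L (0.89), ERRFI1 most like C7orf43 (0.86) and BTC most like PROB1 (0.67).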

How the data were processed

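The authors deposited raw counts, whole numbers of reads per gene from QuantSeq 3′ libraries, in which reads start near the end of polyadenylated transcripts. Per the labels and the deposited settings, reads were checked with raw-qc 2.1.0, trimmed by TrimGalore 0.6.2 (quality of at least 20, length of at least 10), mapped with STAR 2.6.1a to hg38 and counted on GENCODE release 29. The study's methods name hg19. The authors also deposited TPM values, which divide by gene length although 3′ reads do not scale with it. TPM served as an alternative only (limma 3.58.1 on log2(TPM + 1)).

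Counts were tested with edgeR 4.0.16 in R 4.3.3 (quasi-likelihood F-test, TMM, filterByExpr with minimum count 10 and minimum total count 15), in a fit per line of 12 libraries (13264 genes tested in RT112, 13129 in SCaBER) and a fit of all 24 (14823). A gene was called at an adjusted p under 0.05. Standard errors (SE) were derived from the test, as the absolute log2 fold change divided by the square root of the F statistic. RLE factors, no filter, DESeq2 1.42.0, a replicate block, fits of the compared groups only, leaving out each library, and, added after seeing the data, leaving out mitochondrial transcripts were the alternatives. The tests were checked on simulated data. All members were named, and of the pathway genes those 3 of smallest p called in each direction with siFOXA1 in each line. Some genes that these rules name are not reported here. ADAM10, RHBDF2, NRG1, NRG2, NRG3, NRG4 and ERBB4 were named after their values were seen. The members and lists were chosen with earlier results of these data known.

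Libraries of equal replicate number in the labels were taken as pairs for the counts of pairs and for the replicate block. The main tests did not include this pairing. Deviations from group means at equal numbers correlated at 0.040 on average in RT112 and 0.033 in SCaBER, over 0.1 in 0 of 15 pairs of groups in each line. Replicates are separate libraries, the labels do not say more, and p-values then measure the spread between these libraries, which may be technical. No pair of replicates agreed within counting noise (chi-square per gene 6.24 to 23.9). Floors cover counting error only, since no molecular identifiers were stated.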

Additional observations from a re-analysis of the deposited data

Results flagged for a closer look

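These results were singled out because the change of a gene differed between lines or between ZBED2 states by a test of the difference itself, in edgeR's quasi-likelihood test with Benjamini-Hochberg adjustment. The interaction of the FOXA1 and ZBED2 siRNAs on EGFR in RT112 was −0.88 on the log2 scale (adjusted p = 0.0303). This call held in 7 of 12 fits that left out 1 library, and was lost on TPM (adjusted p = 0.578 in limma). The siFOXA1 change of EGFR was greater in RT112 than in SCaBER by 1.05 (adjusted p = 0.00194), and averaged over the ZBED2 states by 0.52 (adjusted p = 0.00279). The averaged change was also greater in RT112 by 0.68 for ERBB3 (adjusted p = 0.00593) and by 1.06 for TGFA (adjusted p = 0.0101). On TPM these line differences of EGFR (adjusted p = 0.125 and 0.237 in limma), ERBB3 (0.205) and TGFA (0.0683) did not pass. For EREG the fitted difference of the siFOXA1 change was 5.83 (adjusted p = 0.0152), but it rests on 0 and 0 against 6 and 10 counts in RT112, depends on the prior count and is no bound, and its call was lost without either RT112 siControl library or RT112 siFOXA1 replicate 2 (adjusted p = 0.057, 0.107 and 0.0865).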

How the results depend on the processing

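Of 138 member results 35 were called, and 0 of the called values reversed under an alternative. RLE factors and leaving out mitochondrial transcripts changed 0 of 138 calls, DESeq2 changed 1 and the replicate block 3 (AREG with siZBED2-1 and HBEGF with siFOXA1 in SCaBER, and the line difference of the siFOXA1 change of AREG, all given above), and it changed no other call.

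Limma on TPM gave fewer called members: 0 with siFOXA1 in RT112 (4 in edgeR), 1 with siZBED2-1 in RT112 (3), 3 in the averaged RT112 comparison (6), 0 in the RT112 interaction (1), 1 with siFOXA1 in SCaBER (2), 1 with siZBED2-1 in SCaBER (2), 0 with siZBED2-2 in SCaBER (1), 1 in the averaged SCaBER comparison (3), 0 between the SCaBER double knock-downs and siFOXA1 (1), 0 in the line difference of the siFOXA1 change (2) and 1 in the averaged line difference (3), where EGFR, ERBB3 and TGFA were lost and EPGN was gained (1.57, adjusted p = 0.0142). The cause was not tested. With only the compared groups the SCaBER double knock-downs had 0. ERBB2 between the lines under siControl was not called on TPM (0.66, adjusted p = 0.0831).

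Leaving out 1 library gave 2 to 3 called members with siFOXA1 in RT112, 1 to 3 with siZBED2-1 in RT112, 0 to 0 with siZBED2-2 in RT112, 5 to 6 in the averaged RT112 comparison, 0 to 0 between RT112 double knock-downs and siFOXA1, 0 to 1 in the RT112 interaction, 1 to 1 with siFOXA1 in SCaBER, 1 to 2 with siZBED2-1 in SCaBER, 0 to 1 with siZBED2-2 in SCaBER, 1 to 3 in the averaged SCaBER comparison, 0 to 1 between SCaBER double knock-downs and siFOXA1, 0 to 0 in the SCaBER interaction, 6 to 7 between the lines, 1 to 2 in the line difference of the siFOXA1 change and 3 to 4 in the averaged line difference.

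Counts over all genes moved by over 1.5 times in several comparisons. In RT112 siZBED2-2 had 22 called genes, 58 with no filter, 70 in DESeq2, 44 with the block and 3 on TPM, and siZBED2-1 had 1167 and 345 on TPM. The RT112 double knock-downs had 260, 430 with no filter, 422 in DESeq2, 444 with the block and 3 on TPM, and the interaction 81, 224, 238, 212 and 4. In SCaBER siZBED2-1 had 610 and 236 on TPM, siZBED2-2 had 82, 125 with the block, 46 with only its groups and 3 on TPM, the double knock-downs 504 and 214 on TPM, and the interaction 300, 464 in DESeq2, 508 with the block and 31 on TPM. The line difference of the siFOXA1 change had 382, 845 in DESeq2, 597 with the block, 250 with only its groups and 251 on TPM, and the averaged line difference 1202 and 1835 in DESeq2. The 2 libraries per group and the few reads of EPGN, EREG in RT112 and BTC limit what could be called.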
